A study of Rattus norvegicus with 6 samples.

Results

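Genes of dietary fat absorption, 10 in number, were followed in nuclei of the rat ileum: the apolipoprotein genes Apoa1, Apoa4, Apob and Apoc3, the lipid transfer gene Mttp, the fatty acid binding protein genes Fabp1 and Fabp2, the triglyceride synthesis genes Mogat2 and Dgat1, and the fatty acid uptake gene Cd36. They were chosen by name as a set of the pathway, and all 10 of 10 were found among the 28282 gene symbols in the count tables. Apoa1 is also a gene that the study picked on these same samples, so its direction is not independent evidence. The rats were male wild-type Sprague-Dawley animals of 6 weeks, acclimatized for 7 days. In the 3 rats of the severe acute pancreatitis group (SAP), sodium taurocholate at 3% was pushed back into the pancreatic duct at 0.1 mL per 100 g of body weight with the duct clamped for 5 min, and the 3 control rats (CON) had their abdomen opened and closed without infusion. Ileum was taken at 24 h from rats that had water but no food after surgery in both groups. Each rat gave 1 library of single-nucleus RNA-seq, and counts of UMIs (unique molecular identifiers, 1 per captured transcript) were read per gene and nucleus.

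Enterocytes, the absorptive cells of the villus, take up fatty acids and monoacylglycerol from the gut lumen, re-esterify them to triglyceride in the endoplasmic reticulum and load the triglyceride onto apolipoprotein B to form chylomicrons, which leave through the lymph. Mttp is the gene of the large subunit of the transfer protein that lipidates apolipoprotein B. Fat absorption takes place mostly in the upper small bowel, and the ileum is better known for reclaiming bile acids.

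Of 90461 barcodes, 40970 passed the quality limits of at least 1200 UMIs, at least 500 genes and at most 5% mitochondrial UMIs. A library held from 3189 to 9246 passing nuclei and from 5549260 to 28771508 UMIs. Barcodes under 1000 UMIs were listed for CON replicate 2 and SAP replicate 1 but not for the other 4 libraries, and in enterocyte-like nuclei CON replicate 2 was the lowest library for 8 of the 10 genes and SAP replicate 1 the highest for 4. The median mitochondrial share of a nucleus of CON rats 1 to 3 was 0.700%, 0.125% and 0.218%, that of SAP rats 1.84%, 1.29% and 0.387%, so it was higher in each SAP rat than in the CON rat of the same number. Barcode names are running numbers, and from 195 to 746 of them occur in both libraries of a pair.

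The nuclei were clustered without the 10 genes, so that these could not define a cluster, and clusters were named from marker lists. Clusters 1, 5, 6 and 16, with 5232, 2160, 2116 and 575 nuclei, were enterocyte-like, 10083 nuclei together. The 13 measured enterocyte markers, brush border enzymes and transporters such as Anpep and Slc5a1, summed to 6017 ± 1307 CPM (UMI counts scaled to the same total in each class and library, SD, n = 6 libraries) in these clusters, against 1394 ± 632 in stem/TA-like and 1835 ± 833 in T-like nuclei. None of the 13 was at 0. The marker sum was not higher in SAP, with CON libraries from 4793 to 8237 CPM and SAP libraries from 5242 to 5577 CPM.

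All but Cd36 were genes of the enterocyte-like nuclei, where their mean CPM was the highest of the named classes. These nuclei held on average 77.8% of the UMIs of Apoa4, 69.3% of Apoa1, 67.7% of Apob and 67.6% of Apoc3, 61.0% of Fabp2, 54.4% of Fabp1, 53.3% of Mogat2, 52.6% of Dgat1 and 45.4% of Mttp. For Cd36, the scavenger receptor that takes up long-chain fatty acids, the share was 22.3%. These shares varied between libraries, and that of Mttp ran from 28.3% to 67.8%. Stem/TA-like nuclei held from 4.20% to 50.3% of the Mttp UMIs, up to 46.6% of those of Mogat2 and up to 37.8% of those of Dgat1. The lowest enterocyte-like shares of Mogat2 and Dgat1 were 31.6% and 32.7%. Apoa1, the main protein of high-density lipoprotein, stood at 4939 ± 3706 CPM (SD, n = 6) in enterocyte-like nuclei and at 814 ± 835 in stem/TA-like nuclei. Apob, the structural protein that each chylomicron is built on, stood at 1238 ± 539 and 168 ± 143 CPM. The corresponding levels of Mttp were 399 ± 96.5 and 181 ± 48.9 CPM, which gave it the smallest fall from enterocyte-like to stem/TA-like nuclei among the 9.

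Cd36 had another distribution. It stood at 4.20 ± 3.00 CPM in enterocyte-like nuclei (n = 6), at 52.6 ± 15.98 in endothelial-like nuclei (n = 6) and at 154 ± 46.6 in fat-like nuclei (n = 4 libraries with such nuclei). The endothelial-like libraries gave 61.6, 42.3 and 72.4 CPM in CON and 35.0, 38.1 and 66.0 in SAP. Each of them lay above every enterocyte-like library, of which the highest was 8.64 CPM. These levels rest on few molecules, from 3 to 51 UMIs per endothelial-like library and from 5 to 15 per fat-like library.

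Every one of the 9 other genes was also counted in classes that do not make chylomicrons. In T-like nuclei the median level over libraries was 13.7% of the enterocyte-like level for Apoa1, 15.99% for Apob and 29.2% for Fabp1, and in smooth muscle-like (SMC-like) nuclei it was 14.8%, 17.98% and 33.7%. Mttp and Dgat1 stood at 43.9% and 33.8% in T-like nuclei. After thinning every nucleus to 1200 UMIs, 69.7% of enterocyte-like nuclei held an Apoa1 UMI on average, and so did 48.2% of T-like and 48.4% of SMC-like nuclei. Without thinning, that share ran from 32.4% to 99.0% of enterocyte-like and from 9.42% to 99.4% of T-like nuclei over the libraries, with median depths of 1550 to 2084.5 and 1674 to 2420 UMIs. Where the counts in T-like and SMC-like nuclei come from was not tested. Their share of the enterocyte-like level is used here as a reference, and a level in another class at or under that share is not read as expression. Such a level does not show that expression is absent either. Fabp1 in endothelial-like nuclei was above it, at a median of 70.3% of the enterocyte-like level, with 194, 63.5 and 545 CPM in CON and 350, 375 and 954 in SAP. Each of these libraries was above its own T-like and SMC-like level, on 6 to 738 UMIs of Fabp1. Mogat2 in neuron-associated (NAC-like) nuclei stood at 51.9%, on 1 to 19 UMIs per library. Among others above that share were Dgat1 in fat-like nuclei, at 70.0% in the 4 libraries with such nuclei, and Fabp2 in endothelial-like nuclei, at 35.3%. The endothelial-like nuclei differed from the reference in another way. In each library ribosomal protein genes held more of their UMIs than of T-like or SMC-like UMIs. The shares were 4.81% against 1.15% and 2.35% in SAP replicate 3, and 1.61% against 1.11% and 1.53% in SAP replicate 2. The part of this in their Fabp1 and Fabp2 levels was not tested.

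The ratio of 2 members in T-like and SMC-like nuclei followed the enterocyte-like ratio of the same library for one pair of genes and less closely for another. The count of Apoa1 divided by that of Apob was 3.21 in enterocyte-like, 3.23 in T-like and 3.43 in SMC-like nuclei of CON replicate 1. In SAP replicate 1 these ratios were 7.81, 8.47 and 8.43, and in SAP replicate 2 they were 3.15, 3.27 and 3.44. In CON replicate 2, with 16 to 21 UMIs per gene in T-like and SMC-like nuclei, they were 1.69, 1.00 and 0.857. The count of Apoa1 divided by that of Fabp1 was mostly lower outside the enterocyte-like nuclei, at 3.01, 2.20 and 1.11 in CON replicate 1, 17.4, 6.62 and 7.97 in SAP replicate 1 and 3.90, 1.82 and 1.61 in SAP replicate 3. In CON replicate 3 it was 5.57, 4.31 and 5.47.

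**Figure D1:**
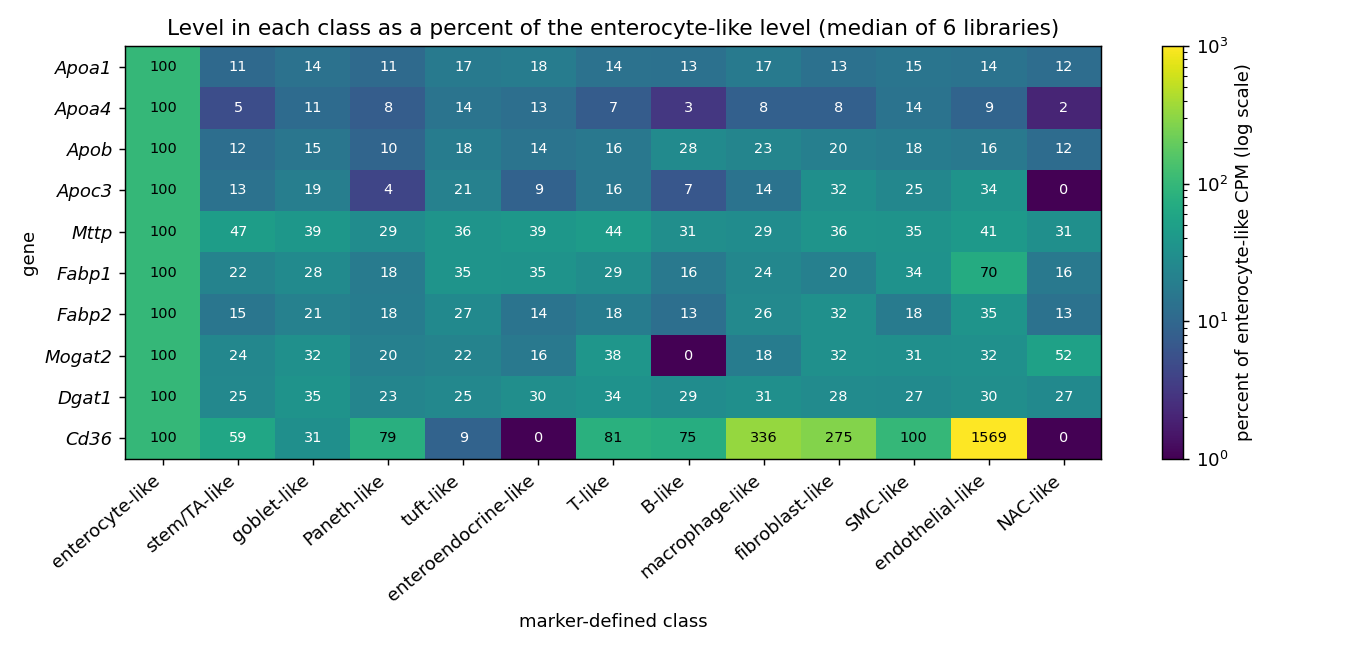
Level of each gene (rows) in 13 marker-defined classes (columns) as a percent of its enterocyte-like CPM, median of 6 libraries, with the percent printed in each cell and the colour on a log scale that starts at 1. The 9 rows above Cd36 are highest in the enterocyte-like column, with Fabp1 in endothelial-like nuclei next at 70.3%, whereas Cd36 is highest in endothelial-like nuclei.

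The sequence before the transcription start was at hand for 4 of the 10 genes, and it is shown for 3 enterocyte-like genes and for Cd36 because their class patterns differ. The stretches are the 150 bases before the start, from RefSeq, build GRCr8, plus strand, 5′ to 3′. Capitals mark matches to 3 short motifs searched on both strands: TATAAA (the TATA box letters), AGATAA (letters bound by GATA factors) and AAAGTNC (part of the letters bound by HNF4 factors).
Apoa4, chr8:55435629-55435778: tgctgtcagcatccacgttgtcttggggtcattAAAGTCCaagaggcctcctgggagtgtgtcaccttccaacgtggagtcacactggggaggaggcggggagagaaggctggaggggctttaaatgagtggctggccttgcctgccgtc
Fabp1, chr4:104749190-104749339: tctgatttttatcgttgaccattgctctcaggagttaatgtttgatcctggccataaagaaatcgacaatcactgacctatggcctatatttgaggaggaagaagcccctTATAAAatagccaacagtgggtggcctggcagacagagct
Fabp2, chr2:213724479-213724628: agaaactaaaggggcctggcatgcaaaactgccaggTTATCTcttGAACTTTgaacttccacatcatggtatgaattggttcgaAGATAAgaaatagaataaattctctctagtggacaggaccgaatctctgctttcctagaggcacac
Cd36, chr4:18246432-18246581: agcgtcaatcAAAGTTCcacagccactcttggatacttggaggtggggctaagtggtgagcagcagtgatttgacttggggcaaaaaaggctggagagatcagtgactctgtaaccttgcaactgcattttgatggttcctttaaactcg
Fabp2 held 2 matches to AGATAA and 1 to AAAGTNC. Apoa4 and Cd36 held 1 match to AAAGTNC each, and Fabp1 held 1 to TATAAA. Of all 33469 promoters of the same length, 8.001% held TATAAA, 5.96% AGATAA and 6.60% AAAGTNC. The AAAGTNC letters occurred in Cd36 as well as in the enterocyte-like genes Apoa4 and Fabp2, but not in the enterocyte-like gene Fabp1.

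Within the enterocyte-like nuclei the genes fell into different orders. Markers of the villus tip, such as the adenosine deaminase gene Ada and the nucleoside transporter gene Slc28a2, summed to 940 ± 150 CPM (SD, n = 6) in cluster 1, 1772 ± 302 in cluster 6 and 5639 ± 637 in cluster 5. Sugar and amino acid transporters of the middle villus were highest in cluster 6, at 2444 ± 389 CPM. Apoa4, an apolipoprotein secreted on chylomicrons, rose with the tip markers, with means of 44.2, 187 and 1344 CPM in clusters 1, 6 and 5. Its level in cluster 5 was above that in cluster 1 in 6 of 6 libraries, 30.4-fold for the means. These cluster values are a description with no test, since clusters were made from genes that vary along with the 10.

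Apoa1 and Apob shared this order, with cluster 5 above cluster 1 by 8.31-fold and 7.04-fold and above cluster 6 in 6 of 6 libraries. Fabp2, the intestinal fatty acid binding protein, was 14.3-fold and Fabp1, the liver type that is also abundant in gut, 6.31-fold higher in cluster 5 than in cluster 1, again in 6 of 6 libraries. Apoc3, an inhibitor of lipoprotein lipase, was 3.57-fold higher, in 5 of 6. For the apolipoproteins and fatty acid binding proteins, then, the highest mean among clusters 1, 6 and 5 was in the cluster with the highest tip markers.

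The enzymes of triglyceride synthesis and transfer did not follow them. Mttp stood at 385, 442 and 274 CPM in clusters 1, 6 and 5 and was lower in cluster 5 than in cluster 1 in 6 of 6 libraries. Mogat2, which joins a fatty acid to monoacylglycerol, stood at 74.3, 89.2 and 45.9 CPM and was higher in cluster 5 in 1 of 6. Dgat1, which adds the last fatty acid, was higher in cluster 5 than in cluster 1 in 6 of 6 libraries but only 1.56-fold, and it was highest in cluster 6 in 5 of 6. Cd36 stood at 4.87, 6.19 and 1.01 CPM and was lower in cluster 5 in 6 of 6, near the level of single UMIs.

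**Figure D2:**
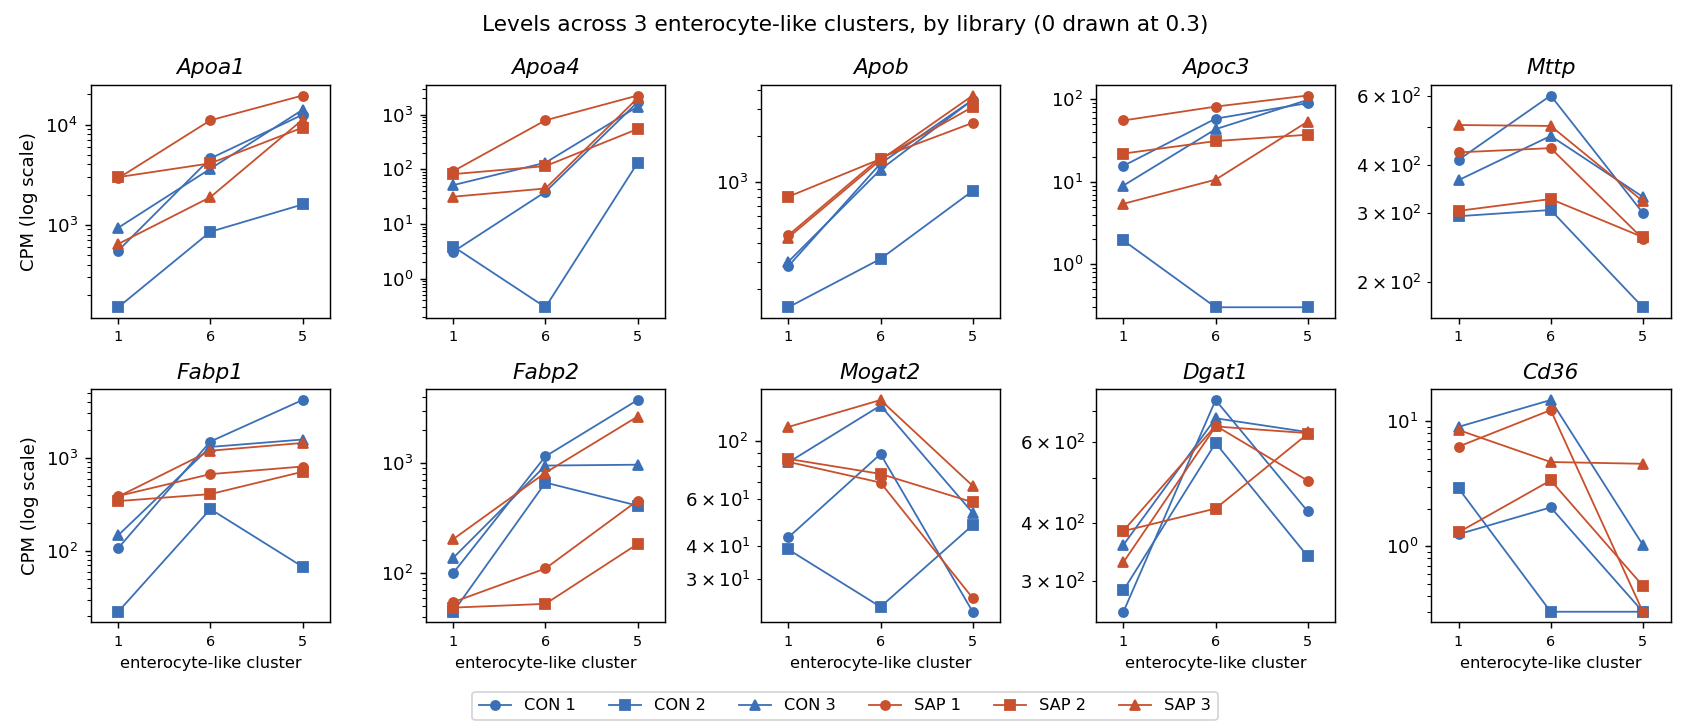
CPM on a log axis in enterocyte-like clusters 1, 6 and 5, ordered by their tip markers, for each of the 6 libraries (blue CON, red SAP, 1 line per library, 0 drawn at 0.3). Apoa1, Apoa4, Apob and Fabp2 end highest in cluster 5 in most libraries, whereas Mttp is lowest there in 6 of 6.

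Cluster 16 was led by the ileal bile acid binding protein gene Fabp6 and by the antimicrobial genes Reg3g and Reg3b. It held 26.2% of the enterocyte-like nuclei of CON replicate 1 but 10 nuclei in CON replicate 2 and 19 in SAP replicate 2. In it Fabp1 averaged 2294 ± 1713 CPM (SD, n = 6) and Mttp 590 ± 176 CPM, each above its mean in clusters 1, 6 and 5. So were Apoc3, at 109 ± 76.6 CPM, and Apoa1, at 11925 ± 13545 CPM against 11342 in cluster 5. Apoa1 ran there from 2653 to 38353 CPM over the libraries. The means of the other members were not highest in cluster 16. Cluster 1, in which Apoa1 and Apoa4 are low, held 72.4% of the enterocyte-like nuclei of CON replicate 2 and 45.0% to 57.1% of those of the other libraries. Within clusters 1, 6 and 5 Apoa1 was also lowest in CON replicate 2, at 151, 854 and 1597 CPM. CON replicate 1 had 554, 4593 and 12516 CPM there, and CON replicate 3 had 936, 3626 and 14009. In cluster 16 CON replicate 2 stood at 3958 CPM, above CON replicate 1 at 2653. The part of the cluster mix in the low levels of CON replicate 2 was not tested.

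Enterocyte-like nuclei made up 13.3%, 12.8% and 19.4% of CON nuclei and 37.5%, 65.5% and 16.7% of SAP nuclei. SAP replicates 1 and 2 were above every CON rat, and SAP replicate 3 lay among them. The SAP mean exceeded the CON mean by 24.8 percentage points (exact permutation test, two-sided, p = 0.2, and 3 rats against 3 cannot give less than 0.1). Without integration of the libraries the difference was −0.46 percentage points (exact permutation test, p = 0.8), because 60.4% and 61.4% of the nuclei of SAP replicates 1 and 2 then fell in unnamed clusters closest to enterocyte-like nuclei. With those clusters counted in, an alternative added after seeing the data, it was 39.9 percentage points (exact permutation test, p = 0.3).

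**Figure D3:**
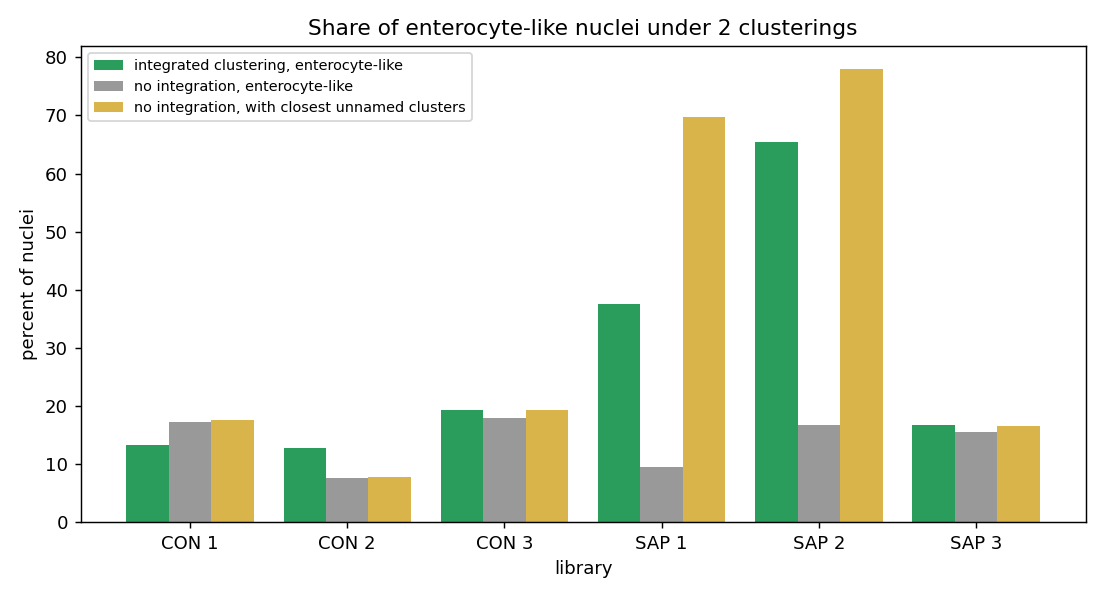
Percent of the nuclei of each library that were enterocyte-like with integration (green), without integration (grey), and without integration with the closest unnamed clusters added (yellow). SAP 1 and SAP 2 stand above the CON libraries in green and yellow but not in grey, and SAP 3 at 16.7% lies within the CON range.

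Summed over all nuclei of a rat, the 10 genes had higher means in SAP, and none passed the test. Levels in this and the following comparisons are CPM after TMM scaling, and a gene was called at an adjusted p under 0.05 with a log2 fold change of 0.5 or more in either direction (edgeR quasi-likelihood test, adjusted over all genes). Of 10 genes 0 were called, as were 0 of 19187 genes tested (0%). An unadjusted p under 0.05 was reached by 6 of the 10, beside 8.43% of all genes, and all 10 had a log2 fold change above 0, beside 52.2%. As an alternative, DESeq2 also called 0 of the 10, beside 1.24% of all genes. The median log2 fold change of the 10 was 1.26, beside 0.025 over all genes. Every SAP rat was above every CON rat for Apoa4, Fabp1 and Mogat2, 3 of 10 beside 4.28% of all genes. Without CON replicate 2, 9 of 10 were higher, 4 had an unadjusted p under 0.05, beside 3.53% of all genes, and the median was 0.92. Without SAP replicate 1 the number with an unadjusted p under 0.05 fell to 2, beside 5.57%, with a median of 1.27. With a term for the 2 libraries that list barcodes under 1000 UMIs the number fell to 3, beside 6.68%, with a median of 1.52. A fit that paired rats of the same number gave 5, beside 2573 of 20808 genes, with a median of 1.54. In such sums more enterocyte-like nuclei and more RNA per nucleus cannot be told apart.

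Apoa1 over all nuclei stood at 690, 106 and 1414 CPM in CON and at 6441, 4133 and 958 CPM in SAP. Its groups overlapped, with SAP replicate 3 under CON replicate 3 (log2 fold change 2.43, SE 0.95, adjusted p = 0.567). Apob stood at 220, 76.5 and 385 CPM in CON and 842, 1237 and 375 in SAP (log2 fold change 1.90, SE 0.63, adjusted p = 0.545). Mogat2 stood at 17.9, 14.8 and 32.5 CPM in CON and 47.9, 67.4 and 32.8 in SAP, apart by a narrow gap (log2 fold change 1.23, SE 0.40, adjusted p = 0.545). Fabp2 differed least, with a log2 fold change of 0.15 (SE 0.64, adjusted p = 0.972).

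Within enterocyte-like nuclei the log2 fold changes of all 10 were lower than over all nuclei, and they did not share a direction. Of the 10 genes 0 were called, beside 0 of 13256 genes tested (0%), and 0 had an unadjusted p under 0.05, beside 7.49% of all genes. DESeq2 called 0 of the 10, beside 0.416% of all genes, and also gave 0 an unadjusted p under 0.05. In a fit that paired rats of the same number (replicate block) 0 were called, 2 had an unadjusted p under 0.05 (Apoa1 and Apoa4), beside 11.3% of all genes, and the median log2 fold change was 0.63. Of the 10, 8 had a log2 fold change above 0, beside 50% of all genes, with a median of 0.26. For 1 of them, Apob, every SAP rat was above every CON rat, beside 5.94% of all genes. Without CON replicate 2, the lowest library for 8 of the 10 genes, 5 were above 0 and the median was −0.015.

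The apolipoproteins had the largest values. Apoa1 stood at 4148, 445 and 4370 CPM in CON and at 13113, 4953 and 3797 CPM in SAP. The outlying rats were CON replicate 2 and SAP replicate 1, and the other 4 lay between 3797 and 4953 CPM (log2 fold change 1.27, SE 0.83, adjusted p = 0.804). Apoa4 stood at 204, 24.4 and 353 CPM in CON and 1077, 204 and 569 in SAP, with overlap (log2 fold change 1.65, SE 0.92, adjusted p = 0.749). In the fit with the replicate block its log2 fold change was 2.03 (adjusted p = 0.278).

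Apob stood at 1291, 263 and 1197 CPM in CON and 1679, 1574 and 1478 in SAP. The SAP rats were close to each other and above all CON rats, yet the gap to the highest CON rat was small (log2 fold change 0.79, SE 0.53, adjusted p = 0.807). Apoc3 stood at 55.5, 2.44 and 36.1 CPM in CON and 102, 29.9 and 20.5 in SAP (log2 fold change 0.62, SE 0.90, adjusted p = 0.925). With SAP replicate 1 left out, Apoc3 turned to a log2 fold change of −0.30.

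Mttp stood at 750, 240 and 335 CPM in CON and 486, 309 and 380 in SAP, with the SAP rats inside the CON range (log2 fold change −0.14, SE 0.40, adjusted p = 0.965). Without CON replicate 1 its log2 fold change was 0.42. The 2 fatty acid binding proteins, which share their ligands, parted in SAP replicates 1 and 2. Fabp1 stood at 1379, 50.0 and 784 CPM in CON and 754, 471 and 973 in SAP (log2 fold change 0.042, SE 0.92, adjusted p = 0.996). Fabp2 stood at 1022, 146 and 536 CPM in CON and 224, 83.8 and 1072 in SAP (log2 fold change −0.19, SE 1.00, adjusted p = 0.986). The count of Fabp2 divided by that of Fabp1 gave 0.741, 2.91 and 0.683 for the CON rats. It gave 0.297, 0.178 and 1.10 for the SAP rats, so SAP replicates 1 and 2 had the lowest ratios. SAP replicate 3 lay in the CON range. The low ratio of SAP replicates 1 and 2 was not particular to enterocyte-like nuclei. T-like nuclei of these rats gave 0.164 and 0.159, where the lowest CON rat had 0.737. Their SMC-like nuclei gave 0.135 and 0.134, where the lowest CON rat had 0.364. Some of these ratios rest on few counts, such as 5 Fabp2 UMIs in SMC-like nuclei of SAP replicate 1. Fibroblast-like nuclei of that rat gave 0.8, on 4 Fabp2 UMIs. The cause of the low ratios was not tested.

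The triglyceride synthesis enzymes varied least between rats. Mogat2 stood at 79.3, 33.5 and 78.2 CPM in CON and 83.3, 77.5 and 88.8 in SAP (log2 fold change 0.39, SE 0.34, adjusted p = 0.863). Dgat1 stood at 587, 284 and 451 CPM in CON and 528, 465 and 427 in SAP (log2 fold change 0.12, SE 0.27, adjusted p = 0.952), and its highest library was 2.07-fold above its lowest, the narrowest range of the 10. The same ratio was 44.2 for Apoa4, 41.6 for Apoc3 and 29.5 for Apoa1. Cd36, with 3 to 35 UMIs per library in this class, stood at 1.42, 1.83 and 7.35 CPM in CON and 6.45, 1.88 and 4.88 in SAP (log2 fold change 0.12, SE 0.78, adjusted p = 0.987).

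**Figure D4:**
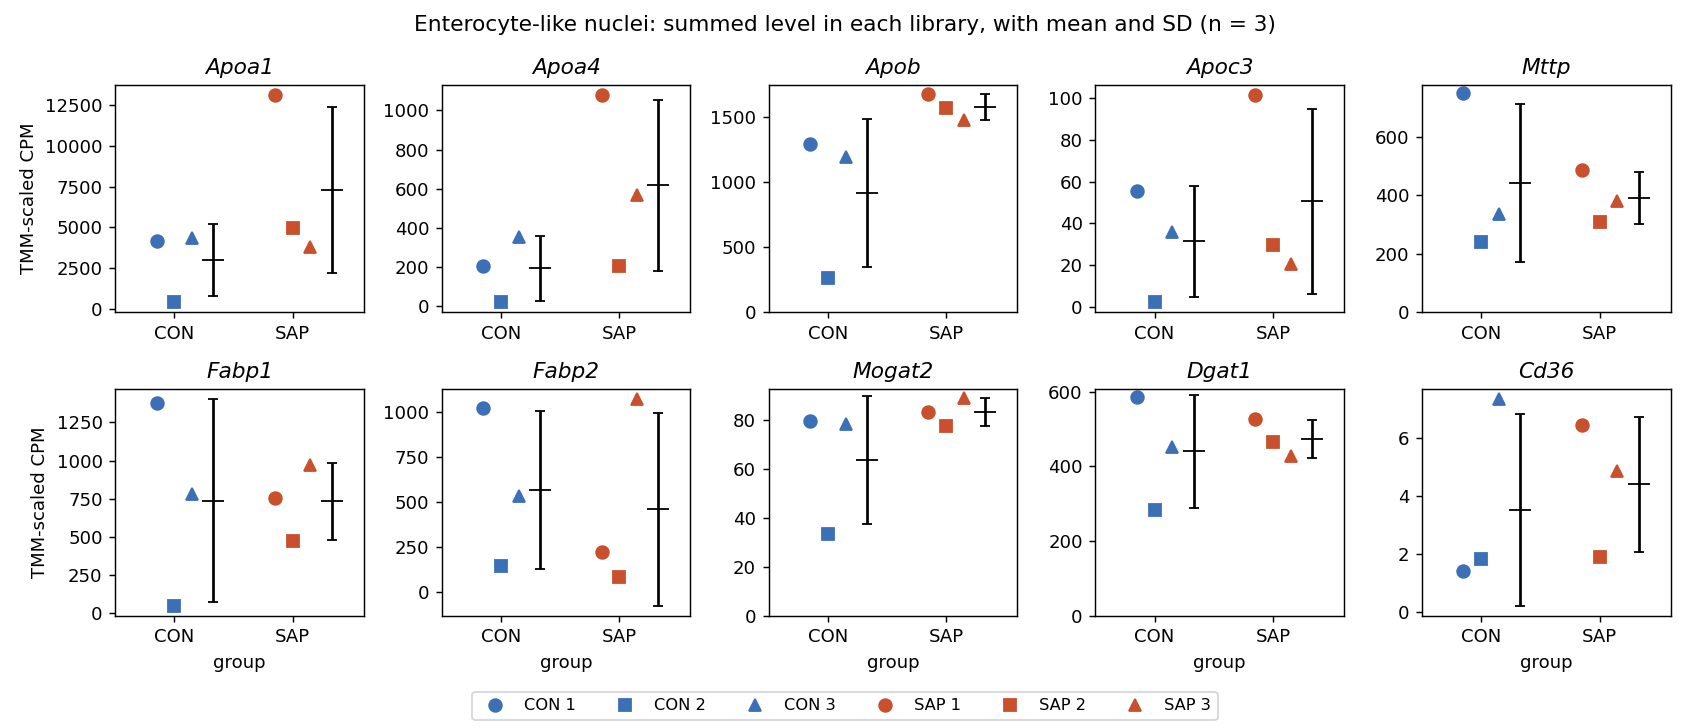
TMM-scaled CPM in enterocyte-like nuclei of each library for the 10 genes, with replicate 1 as a circle, 2 as a square and 3 as a triangle, and the mean and SD (n = 3) as a bar beside each group. Only for Apob do the CON and SAP points not overlap, and CON 2 is the lowest point in 8 of 10 panels.

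The difference was uneven between the 2 libraries that list barcodes under 1000 UMIs and the other 4. Between them, SAP replicate 1 was above CON replicate 2 for all 10 genes in enterocyte-like nuclei, with a median fold of 4.96, 29.5 for Apoa1 and 44.2 for Apoa4. Among the other 4 libraries the ratio of SAP to CON means was above 1 for 4 of 10 genes, with a median of 0.815. There it was 1.03 for Apoa1, 1.39 for Apoa4, 1.23 for Apob and 1.06 for Mogat2, and it was 0.635 for Mttp, 0.668 for Fabp1 and 0.550 for Apoc3. With a term for the kind of library in the fit, the log2 fold change of Apoa1 was 1.35 and that of Apob 1.06 (adjusted p = 0.927 and 0.774). In the enterocyte-like nuclei of CON replicate 2 the median mitochondrial share was 0.128% and ribosomal protein genes held 0.450% of UMIs, the lowest of the 6 libraries, and in those of SAP replicate 1 they were 1.92% and 2.75%, the highest. The part of these values in the results was not tested.

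**Figure D5:**
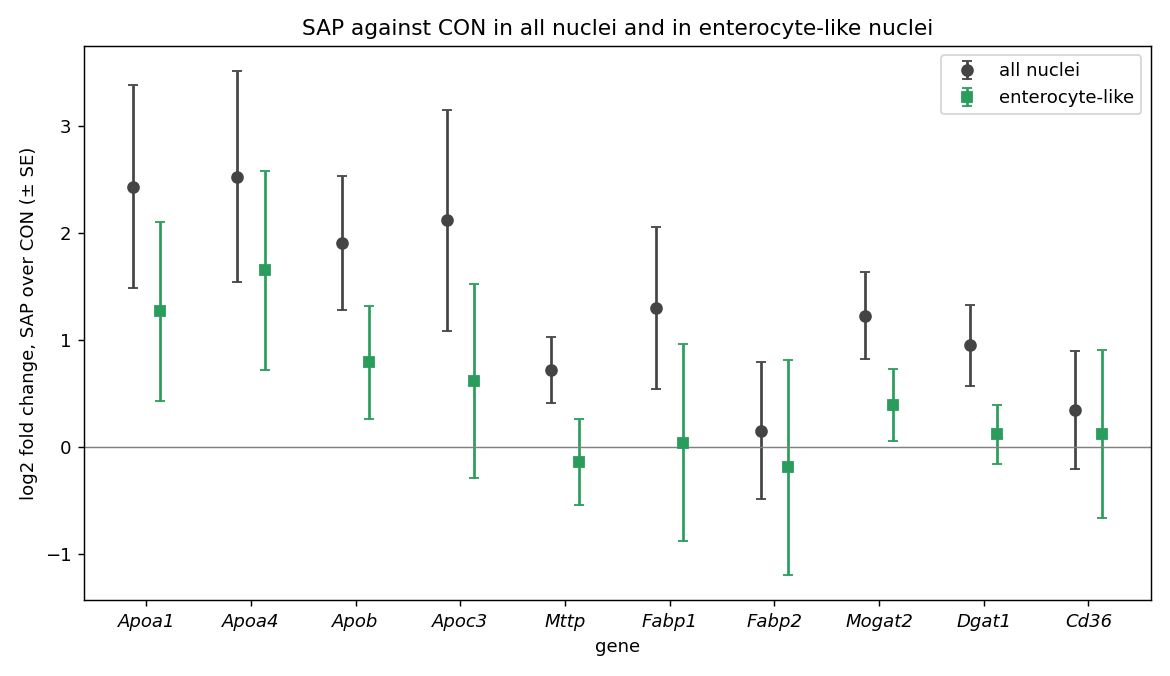
Log2 fold change of SAP over CON with its standard error, for sums over all nuclei (grey circles) and over enterocyte-like nuclei (green squares). Over all nuclei the 10 values lie between 0.15 and 2.52, and in enterocyte-like nuclei between −0.19 and 1.65.

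The enterocyte-like clusters gave different medians. In cluster 1, where tip markers are lowest, 9 of 9 tested genes (all but Cd36, too low for the filter in each of these clusters) were above 0, beside 51.1% of all genes, with a median log2 fold change of 1.16, and 0 were called, beside 0.00942% of all genes. Of these, 3 did not overlap, beside 6.68% of all genes. They were Mogat2, at 53.8, 36.2 and 71.4 CPM in CON and 92.2, 91.4 and 94.3 in SAP (log2 fold change 0.76, SE 0.28, adjusted p = 0.402), together with Fabp1 (1.96, SE 0.62, adjusted p = 0.394) and Apob (1.16, SE 0.38, adjusted p = 0.390). In cluster 5, 7 of 9 were above 0, beside 52.9%, with a median of 0.29 and 0 without overlap, beside 8.84% of all genes. In cluster 6, 3 of 9 were above 0, beside 50.8%, with a median of −0.30 and 0 without overlap, beside 6.13%. Neither called a member, beside 0.0122% and 0.0451% of all genes. In cluster 16, which rests on 10 nuclei of CON replicate 2, 9 of 9 were above 0, beside 52.9%, with a median of 1.18, and 0 were called, beside 0.0343%. There 2 had an unadjusted p under 0.05 (Apoa4 and Apoc3), beside 3.43%, and 1 was without overlap (Fabp1), beside 4.36%. Differences between the clusters were not tested.

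In 11 other classes with at least 10 nuclei in every library, 84 tests of members gave 0 calls, beside 0.0102% of all genes tested there, whereas DESeq2 gave 4 in 110, beside 0.292% of all genes. In stem/TA-like nuclei 10 of 10 were above 0, beside 50.3% of all genes, with a median of 1.44, beside 0.0035 over all genes, and 4 did not overlap, beside 4.75%. Mttp was one of these, at 144, 122 and 176 CPM in CON and 210, 225 and 193 in SAP (log2 fold change 0.57, SE 0.20, adjusted p = 0.527). Its median stem/TA-like level was 47.1% of the enterocyte-like level, against 43.9% in T-like nuclei. For the other members that share was under the T-like one, as for Apoa1 (10.7% against 13.7%) and Fabp1 (22.0% against 29.2%). By the reference set above, the stem/TA-like levels of these members are read neither as expression nor as its absence. In enteroendocrine-like and tuft-like nuclei Apoc3, Mogat2 and Cd36 did not pass the filter on low counts. In enteroendocrine-like nuclei 7 of 7 tested members were above 0, beside 50.2%, and 5 did not overlap, beside 5.49% of all genes, and in tuft-like nuclei it was 7 of 7, beside 52%, and 4, beside 6.4%. The remaining classes went the same way for most members, beside 46% to 52.4% of all genes above 0. These were goblet-like (9 of 9, median 1.78), Paneth-like (8 of 8, 1.27), macrophage-like (7 of 7, 1.33) and fibroblast-like nuclei (7 of 7, 0.95). T-like (7 of 8, 1.03), SMC-like (8 of 9, 1.24), endothelial-like (7 of 8, 0.79) and NAC-like nuclei (4 of 4, 1.53) were alike. In each of them from 0 to 2 members did not overlap, beside 1.04% to 6.42% of all genes. Fabp1 in tuft-like nuclei stood at 50.7, 23.4 and 131 CPM in CON and 183, 289 and 494 in SAP (log2 fold change 2.12, SE 0.49, adjusted p = 0.206). Its median share of the enterocyte-like level was 35.3% in tuft-like and 34.8% in enteroendocrine-like nuclei, near the 33.7% in SMC-like nuclei. When rats of the same number were paired as a block, 2 of 88 tests of members were called in the 11 other classes. They were Fabp1 in tuft-like and in enteroendocrine-like nuclei, beside 0.0758% of all genes.

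Apoa1 in T-like and SMC-like nuclei also had a higher mean in SAP. Apoa1 in SMC-like nuclei stood at 154, 72.3 and 995 CPM (scaled by the total alone) in CON and 1807, 2278 and 632 in SAP, and in T-like nuclei at 204, 51.6 and 982 in CON and 1881, 2218 and 508 in SAP. The median level of Apoa1 was 17.4% of the enterocyte-like level in tuft-like and 18.1% in enteroendocrine-like nuclei, near that in T-like nuclei. In SAP replicate 2, where 65.5% of nuclei were enterocyte-like, T-like nuclei reached 45.8% of the enterocyte-like level of Apoa1, against 6.91% in CON replicate 1. These were the highest and lowest of the 6 libraries, and the median was 13.7%. In SAP replicate 1, where 37.5% of nuclei were enterocyte-like, Apoa1 stood at 1881 CPM in T-like and 11641 CPM in enterocyte-like nuclei. The part of free RNA in the values of the other classes was not tested.

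The difference between SAP and CON was set against that in stem/TA-like nuclei, in 1 fit with 1 value per rat (limma, on the log2 difference of enterocyte-like and stem/TA-like CPM). In all 10 genes the gap between the classes was smaller in SAP, by −0.54 for Dgat1 to −1.56 for Fabp1, and 0 of 10 were called, beside 0% of 14815 genes. None had an unadjusted p under 0.05, beside 4.99% of all genes. As an alternative, edgeR with an interaction term called 0 of 10, beside 0 of 14815 genes. It gave 1 an unadjusted p under 0.05, beside 672 of 14815 genes. The limma fit with the replicate block also gave 1, beside 865 of 14815, and that without CON replicate 2 gave 1, beside 608 of 15381. For Apoa1 the gap was 4.15 in CON and 2.90 in SAP, a change of −1.26 (SE 1.00, adjusted p = 0.965). Stem/TA-like levels were not corrected for background, and for all members but Mttp their median share of the enterocyte-like level was under that in T-like nuclei.

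Of 5 other lists of fat metabolism genes, 0 genes were called in enterocyte-like nuclei, beside 0 of 13256 genes tested (0%). Among 15 tested genes of fatty acid oxidation and ketogenesis 14 were above 0, beside 50% of all genes. Their median log2 fold change was 0.51, beside 4.79e-05 over all genes. For 6 of them every SAP rat was above every CON rat, beside 5.94% of all genes. Cpt1a, the gate of mitochondrial fatty acid import, stood at 115, 130 and 124 CPM in CON and 172, 247 and 231 in SAP (log2 fold change 0.83, SE 0.22, adjusted p = 0.591). The rats of each group were close to each other for this gene, CON replicate 2 and SAP replicate 1 included. Acaa2 and Acot2, of mitochondrial fatty acid breakdown, had log2 fold changes of 1.20 (SE 0.33) and 1.25 (SE 0.35), each with an adjusted p of 0.591. The higher values of this list were not particular to enterocyte-like nuclei. In stem/TA-like nuclei 14 of 14 were above 0, beside 50.3% of all genes, with a median of 0.75. There 8 were without overlap above, beside 4.75%. Over all nuclei 15 of 15 were above 0, beside 52.2%, with a median of 0.75.

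Among 19 tested genes of triglyceride synthesis and lipid droplets 17 were above 0, beside 50% of all genes, with a median of 0.21. Of the 19, 5 were without overlap above, beside 5.94% of all genes, and 1 below, beside 7.79%. The 3 lowest p-values were those of genes that break down or hold stored fat. Pnpla2, the adipose triglyceride lipase, stood at 85.3, 57.9 and 94.3 CPM in CON and 143, 168 and 169 in SAP (log2 fold change 1.03, SE 0.25, adjusted p = 0.591). Lipe, the hormone-sensitive lipase, and Cidec, a lipid droplet protein, had log2 fold changes of 1.10 (SE 0.30) and 1.45 (SE 0.42), and neither group overlapped the other. In stem/TA-like nuclei 15 of 19 genes of this list were above 0, beside 50.3% of all genes, with a median of 0.51. There 6 were without overlap above, beside 4.75%, and 2 below, beside 13.7%.

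In the list of chylomicron assembly and export 12 of 14 tested genes were above 0 in enterocyte-like nuclei, beside 50% of all genes, with a median of 0.22. This list was led by Apobec1 (log2 fold change 0.76, SE 0.32, adjusted p = 0.657), which edits the Apob transcript to the short intestinal form, Plagl2 (0.71) and Apoc2 (0.93), the activator of lipoprotein lipase. Of 14 genes of uptake and activation 8 were above 0, near the 50% of all genes, with a median of 0.15. Slc27a4, a fatty acid transport protein, had a log2 fold change of 0.51 (SE 0.22, adjusted p = 0.657), the acyl-CoA synthetase gene Acsl1 0.60, and Fabp6 −2.10 with CON replicate 1 at 14201 CPM and the other 5 libraries at or under 1683. Of 19 transcription factors 13 were above 0, beside 50% of all genes, with a median of 0.16. Their lowest p-values belonged to Prdm1 (1.10), Gata6 (−0.44) and Creb3l3 (1.86), a factor known to act on apolipoprotein genes, which stood at 80.0, 7.92 and 184 CPM in CON and 495, 221 and 302 in SAP (SE 0.89, adjusted p = 0.689).

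Over the 26 clusters, genes outside these lists with a pattern among those most like the mean of the 10 were Dpep1 (Pearson r = 0.945), Slc3a1 (0.923), Cdh17 (0.922) and Muc13 (0.919). Each member but Cd36 correlated with the mean of the other 9, from 0.646 for Mogat2 to 0.934 for Apob, and Cd36 did not (r = −0.0034). The genes most like Cd36 were Cfd (0.859), Aifm2 (0.8003) and Prex2 (0.784). These correlations are a description over clusters, which share libraries and depth.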

How the data were processed

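Nuclei of 6 rats were sequenced with the DNBelab C kit, and dnbc4tools was used by the authors to count the UMIs of each gene in each barcode. The deposited counts are whole numbers without normalization. The submitters' processing notes name Seurat 4.3.0 and the build mRatBN7.2, and genes are given by symbol. Spatial data were not analysed here. Depth per library is 5549260 to 28771508 UMIs over passing nuclei, and intervals of counting are not given, since spread between rats is larger.

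Nuclei were clustered with Python 3.11.15, scanpy 1.11.5 and leidenalg 0.10.2 on 2000 variable genes without the 10 members, the genes of the fat metabolism lists, mitochondrial genes and the Apo, Fabp, Defa, Reg3 and RT1 families, 30 principal components, a re-implementation of Harmony, 20 neighbours and a resolution of 0.8. A class was named when its markers scored at least 0.5 and led the next by 0.8, with at least 3 detected. Stem and TA counted as 1 class for this lead, as did endothelial and lymphatic endothelial. One cluster labelled mast from Kit but led by Ano1 was left unnamed. Scrublet's threshold marked 0% of nuclei in every library, so doublets were kept, and removing the 5% with the highest scores per library was an alternative. The marker list used the symbol Sis, which was not in the tables used here. The rat symbol Si was in them but not in the marker list.

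UMIs were summed per library and class, and the rat was the unit. CON and SAP were compared with edgeR 4.0.16 under R 4.3.3 (filterByExpr, TMM, quasi-likelihood test, Benjamini-Hochberg adjustment), with DESeq2 1.42.0 as an alternative and limma 3.58.1 for the difference between classes. All p-values rest on 3 rats per group. The scripts were tested on counts simulated from the enterocyte-like means, with 200 genes changed. At 1 common dispersion estimated over the genes tested (0.135), 0% of changes of 2-fold and 84% of changes of 4-fold were called. Every simulated gene had that same spread, and the wider spread of some members was not simulated. In enterocyte-like nuclei the highest library was 44.2-fold above the lowest for Apoa4 and 29.5-fold for Apoa1. A count of 0 calls therefore does not exclude changes of 2-fold, nor larger changes in such members. Deviations from the group mean correlated between same-numbered libraries at 0.577, 0.183 and 0.524 over all nuclei and 0.501, 0.133 and 0.457 in enterocyte-like nuclei. Pairs of unlike number ran from −0.616 to 0.144 over all nuclei and from −0.467 to −0.031 in enterocyte-like nuclei. Over all nuclei CON replicate 2 with SAP replicate 1 gave 0.144, near the 0.183 of number 2. Deviations within a group of 3 depend on each other, so these values are a description. The main fits had no block, so their p-values ignore a possible pairing. A fit with replicate number as a block was an alternative. The labels do not say what the number marks.

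The members and lists were chosen with earlier results of these data known. Genes named beside the 10 are the 3 with the lowest p of each list in enterocyte-like nuclei, and the genes most alike in pattern (5 for the mean, of which 1 is not reported here, and 3 for a member with r under 0.5). Genes that lead or mark clusters are named for their level.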

Additional observations from a re-analysis of the deposited data

Results flagged for a closer look

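Barcodes under 1000 UMIs were listed for CON replicate 2 (15242 barcodes) and SAP replicate 1 (20899 barcodes) and entered no comparison. In those of SAP replicate 1 the level of 9 of the 10 genes was above that in the control library. Apoa1 stood at 3564 CPM there against 109 CPM in CON replicate 2, Apoa4 at 211 against 4.55, Apob at 416 against 87.9 and Apoc3 at 45.1 against 0.371. Fabp1 stood at 479 against 28.9 CPM, Fabp2 at 97.2 against 52.2 and Mttp at 231 against 126. Mogat2 stood at 32.6 against 19.3 CPM and Dgat1 at 190 against 118. Cd36 was the exception, at 2.92 against 3.71 CPM. With 1 library per group these differences have no replicate check.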

How the results depend on the processing

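Counts of called members were 0 under every alternative run over all nuclei, in enterocyte-like nuclei and for the difference from stem/TA-like nuclei, and so were called genes of the 5 lists. In the other classes the count was 4 with DESeq2 (Apob and Fabp1 in tuft-like and in enteroendocrine-like nuclei), 10 with no low-count filter, 2 with the replicate block (beside 0.292%, 0.49% and 0.0758% of all genes), and from 0 to 2 with 1 library left out, the 2 being without CON replicate 3 (Apob in tuft-like and Fabp1 in enteroendocrine-like nuclei, beside 0.0416%). A limit of 1% mitochondrial UMIs left 5 of these 11 classes to test.

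The enterocyte-like share differed by −0.46 percentage points with no integration, and by 12.0 to 36.4 with 1 library left out, lowest without SAP replicate 2. In pairs of the same number the exact sign-flip test gave p = 0.5, where 3 pairs cannot give less than 0.25.

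In enterocyte-like nuclei the sign of small log2 fold changes turned. At no more than 1% mitochondrial UMIs Apoc3 was −0.099 and Fabp1 −0.37. Fabp1 was −0.011 with no low-count filter, and Fabp2 was 0.047 with library totals in place of TMM and 0.30 with no integration. With 1 library left out Apoc3 lay between −0.30 and 1.18, Mttp between −0.45 and 0.42, Fabp1 between −0.52 and 0.78, Fabp2 between −1.93 and 0.46, Dgat1 between −0.13 and 0.33 and Cd36 between −0.27 and 1.44. The sign turned without SAP replicate 1 (Apoc3, Fabp2, Cd36), SAP replicate 2 (Mttp, Fabp2), SAP replicate 3 (Fabp1, Cd36), CON replicate 1 (Mttp, Fabp2, Cd36) and CON replicate 2 (Fabp1, Dgat1, Cd36). The cause was not tested. The replicate block changed no other call. Apoa1, Apoa4, Apob and Mogat2 stayed above 0 under every alternative run. The depth of Cd36 limits it to the level of single UMIs in enterocyte-like nuclei.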
